A study of Mus musculus with 3 samples.

Results

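The genes described here act in mitosis, the stage at which a cell sorts its copied chromosomes into a pair of daughter cells. They were chosen by name, as a list of 47 symbols of mitotic cyclins and kinases, checkpoint and kinetochore proteins, spindle motors and cytokinesis proteins. A gene was included where at least 1 probe set of the array was annotated to that symbol and no other, which held for 46 of the 47, out of 18193 genes so annotated. The 46 genes were read by 104 of 45037 probe sets, and each gene is represented by its brightest probe set, judged by the mean of the 3 arrays. Ccnb1, which encodes cyclin B1, had no such probe set and is not analysed here.

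The study hybridised RNA of sorted CD8+ T cells to 3 Affymetrix mouse expression arrays, 1 per group. The KO NK1.1+ and KO NK1.1− groups were the NK1.1+ and NK1.1− fractions of CD8+ T cells from Tgfbr2 fl/fl x CD4-Cre mice aged 15 to 17 days, whose T cells lose the type II receptor for transforming growth factor β. NK1.1 is a surface receptor best known from natural killer cells. The control group was CD8+ T cells of Tgfbr2 fl/wt x CD4-Cre littermates, called NK1.1− in the sample title and total CD8+ cells in one passage of the design. All groups therefore carried Cre under the Cd4 promoter, which is active from the thymus on in both CD4 and CD8 lineages, and the control cells had lost 1 of the 2 receptor copies. The sources used here do not give how many mice were pooled for an array. With 1 array per group no difference has a replicate check, no test was made, and the precision is limited by the number of arrays.

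At the start of mitosis, cyclin-bound CDK1 phosphorylates many proteins, chromosomes condense, and microtubules attach to each centromere through the kinetochore. The spindle checkpoint holds the cell there until every kinetochore is attached. The anaphase-promoting complex (APC/C) then marks securin and cyclin B for destruction, separase cleaves the cohesin that holds sister chromatids together, and the central spindle guides the cleavage furrow. Most of these transcripts are made only from late S phase to mitosis, so in T cells they are low at rest and high during clonal expansion.

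Transcription of such genes is commonly traced to a pair of promoter elements. The cell cycle genes homology region (TTTGAA or TTTAAA) is bound by the MuvB core of the DREAM complex, and the CCAAT box (CCAAT) is bound by NF-Y. RefSeq promoter windows on GRCm38.p6, from 250 bases before to 50 bases after the annotated transcript start, were at hand for 39 of the 47 listed genes and were searched on both strands for these letters. Printed below are windows of 5 genes whose values are given later, Cdk1, Ccnb2, Plk1 and Ube2c from the genes with 2-fold or larger differences and Kif23 from the pair without, with the matched letters of either element in capitals on the gene's own strand.
Cdk1, chr10:69352863-69353162, minus strand: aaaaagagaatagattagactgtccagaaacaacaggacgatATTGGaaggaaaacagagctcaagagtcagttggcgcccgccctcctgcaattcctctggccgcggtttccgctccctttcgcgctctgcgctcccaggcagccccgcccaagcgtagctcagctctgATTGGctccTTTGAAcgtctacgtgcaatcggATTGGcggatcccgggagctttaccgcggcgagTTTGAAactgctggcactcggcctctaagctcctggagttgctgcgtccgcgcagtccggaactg
Ccnb2, chr9:70421505-70421804, minus strand: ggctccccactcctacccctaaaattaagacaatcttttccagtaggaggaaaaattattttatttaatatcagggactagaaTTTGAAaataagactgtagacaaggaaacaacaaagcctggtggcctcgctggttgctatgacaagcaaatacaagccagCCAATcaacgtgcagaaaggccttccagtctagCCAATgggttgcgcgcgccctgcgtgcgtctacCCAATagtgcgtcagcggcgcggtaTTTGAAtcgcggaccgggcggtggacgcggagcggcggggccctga
Plk1, chr7:122159185-122159484, plus strand: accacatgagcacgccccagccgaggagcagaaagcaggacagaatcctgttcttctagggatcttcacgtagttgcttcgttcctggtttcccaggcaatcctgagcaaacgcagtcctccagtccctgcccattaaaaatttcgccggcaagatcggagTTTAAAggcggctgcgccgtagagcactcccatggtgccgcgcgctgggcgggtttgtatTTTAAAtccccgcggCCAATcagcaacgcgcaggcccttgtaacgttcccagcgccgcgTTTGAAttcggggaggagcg
Ube2c, chr2:164769679-164769978, plus strand: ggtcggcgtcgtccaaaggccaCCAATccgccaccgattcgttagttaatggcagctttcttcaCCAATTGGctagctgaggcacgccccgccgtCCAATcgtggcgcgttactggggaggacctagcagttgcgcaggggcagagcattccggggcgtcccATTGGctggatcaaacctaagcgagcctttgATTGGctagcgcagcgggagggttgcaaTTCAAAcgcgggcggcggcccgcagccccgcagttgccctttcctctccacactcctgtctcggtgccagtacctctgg
Kif23, chr9:61946750-61947049, minus strand: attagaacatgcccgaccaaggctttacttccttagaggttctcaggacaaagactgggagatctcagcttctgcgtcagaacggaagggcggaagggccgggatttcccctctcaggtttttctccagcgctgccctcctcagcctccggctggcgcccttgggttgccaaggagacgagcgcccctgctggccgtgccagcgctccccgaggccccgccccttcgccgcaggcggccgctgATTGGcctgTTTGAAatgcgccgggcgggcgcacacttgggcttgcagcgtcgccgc
The Ccnb2 window had 3 CCAAT matches, with first bases 87, 54 and 21 bases before the start, and a TTTGAA match 4 bases after it. In the Cdk1 window, TTTGAA began 71 and 15 bases before the start. The Plk1 window held TTTAAA at 2 places in the upstream stretch and TTTGAA after the start. Ube2c had 6 CCAAT matches, 1 pair of them overlapping as CCAATTGG, and its single homology region match lay on the opposite strand, where it reads TTCAAA. Kif23 had 1 match of each kind, within 10 bases of the start. Each match is a run of letters and not a shown binding site.

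**Figure D1:**
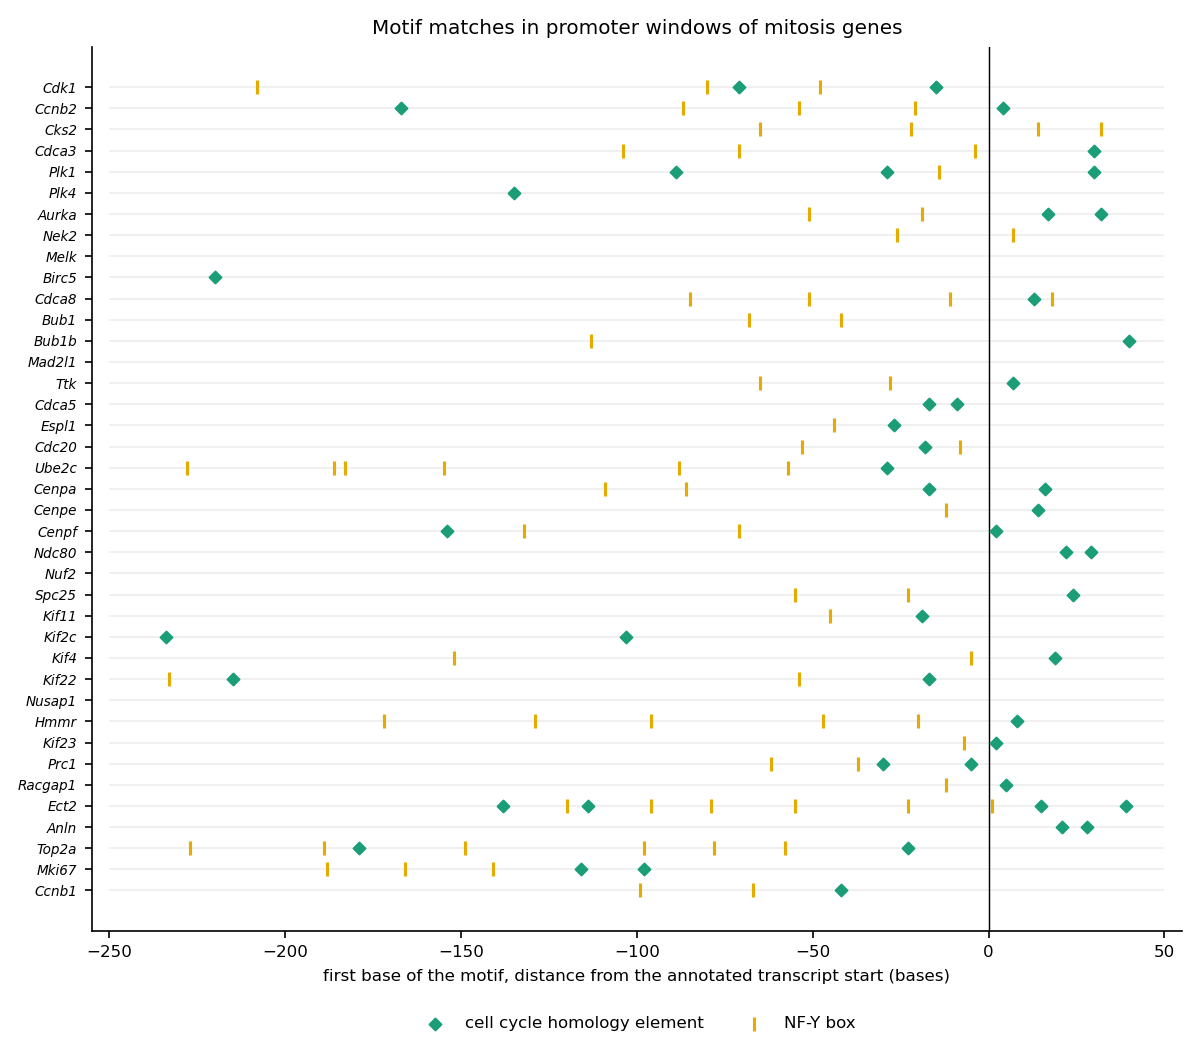
Matches to the cell cycle genes homology region (diamonds) and to the CCAAT box bound by NF-Y (bars) in the RefSeq promoter windows of 39 of the listed genes. The horizontal axis is the distance of the match's first base from the annotated start in bases; most windows hold at least 1 diamond, and 7 hold none.

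Of the 39 promoters, 32 (82.1%) held TTTGAA or TTTAAA and 29 (74.4%) held CCAAT. Both kinds stood together in 26 (66.7%). Among the 8594 genes in the promoter table that were measured on at least 1 array, the shares were 22.9%, 43.0% and 9.29%. TTTGAA alone was in 28 of the 39 (71.8%), against 14.7% of measured genes, and TTTAAA in 10 (25.6%), against 11.1%. When the window was narrowed to begin 100 bases before the start, 29 of the 39 (74.4%) held a homology region match, against 9.55% of measured genes. The 7 genes with no homology region match in the full window were Bub1, Cks2, Mad2l1, Melk, Nek2, Nuf2 and Nusap1.

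The values are probe set intensities on a linear scale. The detection level was an intensity of 10.3, the 95th percentile of 144 probe sets of receptor, keratin-associated and lens crystallin genes that lymphocytes are not known to use. Values below that level were raised to it before log2 differences were taken, so such a difference is a bound, written "at least". The call threshold was a log2 difference of 1, which is 2-fold, in either direction. At or above this level were 9748 genes for KO NK1.1+, 9476 for KO NK1.1− and 9369 for control cells, and of the mitosis genes 41, 46 and 45.

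The labels were checked on a few other genes. The brightest Tgfbr2 probe set read 1808 on the KO NK1.1+ array, 1271 on the KO NK1.1− array and 2634 on the control array, and may lie outside the floxed part, in which case it checks nothing. A probe set shared by Klrb1b and Klrb1c, the gene of NK1.1, read 1618, 52.7 and 7.09 in the same order. All 8 CD8 T cell markers on the array were measured on all 3 arrays, with summed intensities of 4304 (KO NK1.1+), 9225 (KO NK1.1−) and 12795 (control). Summed markers of monocytes, macrophages and granulocytes (15 genes) were 9683, 369 and 279, mostly from Csf1r, with Itgam and Cd14 below the level on all arrays. Summed B and plasma cell markers (11 genes) were 13444, 1310 and 2362, with Cd79a and Pax5 below the level on all arrays. These markers did not move together. For KO NK1.1+ against control, 4 of 9 measured were called higher (Cd22, Ighm, Jchain and Mzb1) and 1 lower (Cd79b). Their median log2 difference was -0.03, and 9.9% of all measured genes were called higher and 23.3% lower. For Actb the 3′ to 5′ probe set ratio, a sign of RNA integrity, was 81.9 (KO NK1.1+), 12.3 (KO NK1.1−) and 6.02 (control), and for Gapdh 10.8, 26.7 and 17.8. The KO NK1.1+ array thus stood apart from the other arrays in cell type markers and in the Actb ratio, and the part of these in the mitosis gene values was not tested.

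In KO NK1.1− cells, nearly the whole set of mitosis genes was higher than in control cells. Of 46 measured genes, 44 were called higher and 0 lower, where 8.14% of all 9812 measured genes were called higher and 5.58% lower. The median log2 difference was 2.26, a 4.79-fold difference, with single genes between 0.46 and 3.15, beside a median of 0.01 over all measured genes, and the direction of the set held under every scaling run. By brightest probe sets, the largest differences were those of Ccna2 (8.85-fold), Ube2c (8.33-fold) and Kif2c (8.13-fold). A dimmer Kif2c probe set gave 2.52-fold. The 2 genes not called were Foxm1 and Kif23. None of the 8 CD8 T cell markers was called in this comparison (median -0.50). Of 8 thymocyte markers, 4 were measured and 0 called (median 0.18), and Rag1, Rag2 and Ptcra were below the detection level on all 3 arrays. In bulk samples, a larger share of dividing cells and more of each transcript per cell cannot be told apart, nor can fewer cells of a type and less RNA per cell.

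KO NK1.1+ cells did not share this level. Against KO NK1.1− cells, 44 of the 46 genes were called lower and 0 higher, where 21.7% of 10328 measured genes were called lower and 6.5% higher. The median log2 difference was -2.91, a 7.52-fold lower value, beside -0.26 over all measured genes, and this direction too held under every scaling run. CD8 T cell markers were called lower for 5 of 8 (median -1.17) and housekeeping genes for 3 of 8 (median -0.75), and their part in the result was not tested. By brightest probe sets, Aurkb had the largest difference (28.9-fold lower), followed by Cdca5 (17.4-fold) and Cdca2 (15.9-fold). The KO NK1.1+ value of Aurkb, 10.8, lay just above the detection level of 10.3. Other measured probe sets gave 14.6-fold for Aurkb, 19.3-fold for Cdca5 and 3.75-fold for Cdca2, so the ranking depends on the probe set. Incenp and Foxm1 were not called. All 46 genes were highest on the KO NK1.1− array, against 33.3% of the 10529 genes measured on any array.

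The mitosis genes of KO NK1.1+ cells lay closer to control cells, mostly below them. Of 45 measured genes, 14 were called lower (31.1%) and 1 higher, where 23.3% of 10339 measured genes were called lower and 9.9% higher. The median log2 difference was -0.47, beside -0.19 over all measured genes, and 36 of the 45 were below 0, as were 6084 of the 10339. In the same comparison 7 of 8 CD8 T cell markers were called lower (median -1.73) and 8 of 10 measured monocyte, macrophage and granulocyte markers higher (median 1.98). This direction depended on scaling: with arrays scaled by hybridisation controls 40 of 46 genes were called lower and 0 higher, and with arrays centred on the CD8 T cell markers 0 were called lower and 19 higher. Over all measured genes the median log2 difference moved with the scaling too, to -1.33 and to 0.66. With arrays centred on the median of genes measured on all arrays, 6 of 46 mitosis genes were called lower and 2 higher. Their median was then -0.01, beside 0.19 over all measured genes. Both KO comparisons use the same control array, so they are not independent.

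**Figure D2:**
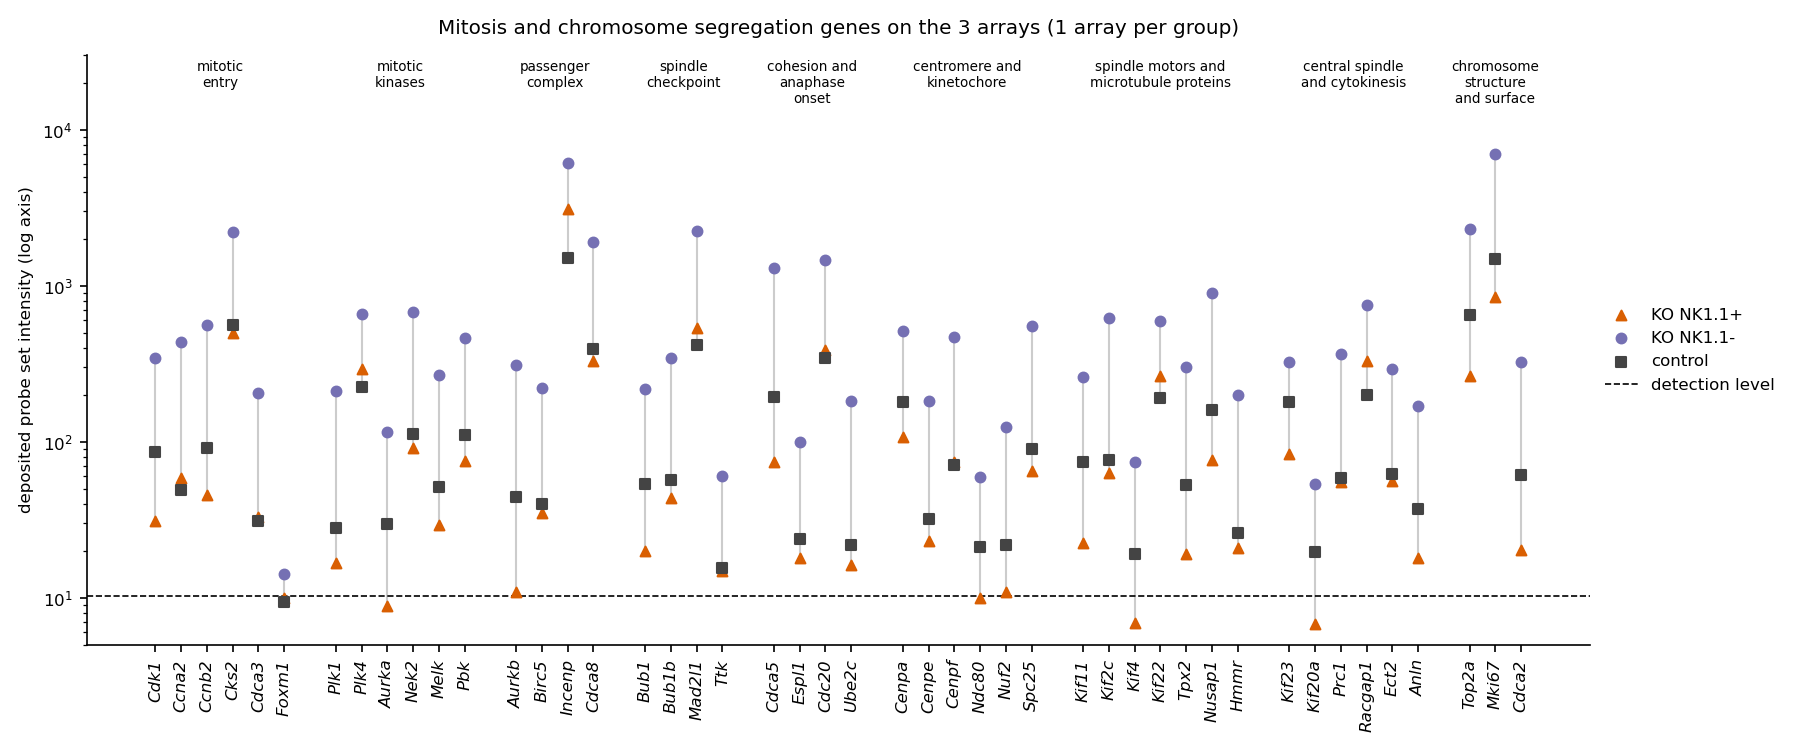
Deposited probe set intensity (log axis) of the 46 mitosis genes on the 3 arrays, 1 per group, grouped by role; the dashed line is the detection level of 10.3. The KO NK1.1− circle is the highest point of every gene, while the KO NK1.1+ triangle and the control square lie closer together and change places between genes; heights of different genes are not comparable.

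**Figure D3:**
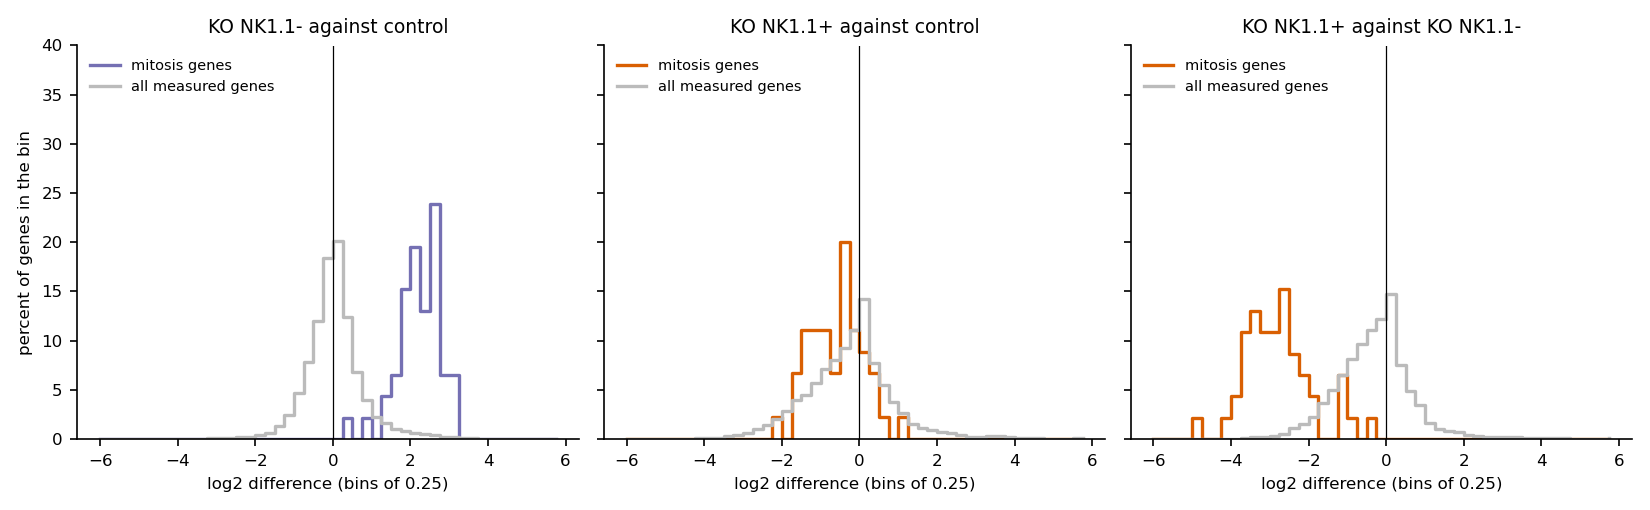
Percent of genes in each bin of log2 difference (bin width 0.25), for the mitosis genes (coloured) and all measured genes (grey), in the 3 comparisons. The mitosis genes lie to the right of all genes for KO NK1.1− against control (median 2.26). For KO NK1.1+ against KO NK1.1− they lie to the left of all genes (median -2.91). For KO NK1.1+ against control they lie largely over all genes (median -0.47). That direction turns when arrays are centred on CD8 T cell markers, and the median is -0.01 with median centring.

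Among the genes of mitotic entry, 5 of 6 were called higher in KO NK1.1− than in control cells (median log2 difference 2.31). Cdk1, the catalytic subunit of the mitotic kinase, read 30.8 in KO NK1.1+, 347 in KO NK1.1− and 85.3 in control cells. Ccna2, which encodes cyclin A2, the CDK partner of S and G2 phase, read 58.2, 437 and 49.3 in the same order. For Cdk1 the KO NK1.1+ array was the lowest, 2.77-fold below control. For Ccna2 it lay 1.18-fold above control by this probe set and 1.30-fold below it by the other. Ccnb2, a mitotic cyclin B, read 45.4 in KO NK1.1+, 557 in KO NK1.1− and 91.4 in control cells. Cks2, a small adaptor that binds CDK1 to its substrates, read 499, 2227 and 557, and Cdca3, a trigger of mitotic entry through WEE1 degradation, read 32.7, 206 and 31.1. In these 3 genes the KO NK1.1− array was again the highest, between 3.99-fold and 6.62-fold above control.

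Foxm1, the forkhead transcription factor that activates many G2 and mitosis genes, was the exception. Its brightest probe set read 10.02 in KO NK1.1+, 14.2 in KO NK1.1− and 9.38 in control cells, so it was measured on the KO NK1.1− array only, at least 1.38-fold above control. Of its other 3 single-gene probe sets, 1 read 8.77, 10.7 and 12.1 and 2 were below the level on all arrays. These readings lie so close to the detection level that they give almost no order.

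All 6 mitotic kinase genes were called higher in KO NK1.1− than in control cells (median log2 difference 2.23) and lower in KO NK1.1+ than in KO NK1.1− cells (median -3.05). Plk1, the polo kinase of centrosome maturation and mitotic entry, read 16.6 in KO NK1.1+, 213 in KO NK1.1− and 27.8 in control cells. Plk4, the polo kinase that starts centriole duplication, read 294, 664 and 224. Plk1 was thus 7.64-fold higher in KO NK1.1− than in control cells and Plk4 2.96-fold. By these probe sets the KO NK1.1+ value lay below control for Plk1 and above it for Plk4. A dimmer Plk4 probe set read 12.9, 57.0 and 21.6, with KO NK1.1+ 1.68-fold below control as for Plk1. Aurka, the spindle pole kinase Aurora A, read 8.80 in KO NK1.1+, 115 in KO NK1.1− and 29.6 in control cells, which puts KO NK1.1+ cells at least 2.86-fold below control. Nek2, a kinase of centrosome separation, read 90.8, 683 and 112 by its brightest probe set, and Melk and Pbk, kinases abundant in dividing cells, were 5.23-fold and 4.19-fold higher in KO NK1.1− than in control cells. A dimmer Nek2 probe set gave 1.502-fold.

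The chromosomal passenger complex corrects wrong kinetochore attachments and later directs cytokinesis. Its kinase Aurkb (Aurora B) read 10.8 in KO NK1.1+, 312 in KO NK1.1− and 44.1 in control cells, and a second probe set 13.5, 197 and 23.7. Both Aurkb probe sets put the KO NK1.1+ array lowest, 4.08-fold and 1.75-fold below control. Birc5 (survivin), which brings the complex to the centromere, read 34.7, 223 and 39.8, and Cdca8 (borealin) 328, 1908 and 393. By these probe sets, the KO NK1.1+ and control values of Birc5 and Cdca8 differed by less than 1.5-fold.

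Incenp, the scaffold of the passenger complex, was the 1 gene called higher in KO NK1.1+ than in control cells. Its brightest probe set read 3113 in KO NK1.1+, 6088 in KO NK1.1− and 1513 in control cells, and a second probe set 47.4, 89.3 and 24.1. Another read 6.51, 76.8 and 37.0, so that KO NK1.1+ cells lay at least 3.59-fold below control there. The 3 Incenp probe sets shared only that the KO NK1.1− array was highest. The brightest is of a suffixed type (x_at), whose probes may also match other transcripts.

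All 4 spindle checkpoint genes were called higher in KO NK1.1− than in control cells (median log2 difference 2.22). Bub1, a checkpoint kinase at the kinetochore, read 19.8 in KO NK1.1+, 218 in KO NK1.1− and 53.7 in control cells. Bub1b, whose product BubR1 inhibits the APC/C, read 43.9, 344 and 56.9 by its brightest probe set. Bub1 was 2.71-fold lower in KO NK1.1+ than in control cells, and Bub1b 1.30-fold by this probe set but at least 4.21-fold by another. Mad2l1 (MAD2), which blocks the APC/C activator CDC20, read 538 in KO NK1.1+, 2251 in KO NK1.1− and 419 in control cells. Ttk (MPS1), the kinase at the head of the checkpoint, read 14.9, 60.3 and 15.4. By these probe sets Mad2l1 and Ttk kept the KO NK1.1− array highest, with the other arrays within 1.5-fold of each other. A dimmer Ttk probe set read 18.0 in KO NK1.1+, 16.8 in KO NK1.1− and 9.23 in control cells. There the KO NK1.1+ array was highest, at least 1.75-fold above control.

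For the genes of cohesion and anaphase onset, 4 of 4 were called higher in KO NK1.1− than in control cells (median log2 difference 2.41). Cdca5 (sororin), which protects cohesin on replicated chromosomes, read 74.2 in KO NK1.1+, 1294 in KO NK1.1− and 195 in control cells. Ube2c, the ubiquitin-conjugating enzyme of the APC/C, read 16.1, 182 and 21.9. Cdca5 was 2.62-fold lower in KO NK1.1+ than in control cells and Ube2c 1.36-fold. Espl1 (separase), the protease that cuts cohesin, read 18.1 in KO NK1.1+, 100.1 in KO NK1.1− and 23.9 in control cells. Cdc20, the APC/C activator, read 386, 1468 and 343 by its brightest probe set and 38.4, 322 and 101 by another. For Cdc20 these probe sets differed on the side of the control on which KO NK1.1+ cells lay.

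All 6 centromere and kinetochore genes were called higher in KO NK1.1− than in control cells, with the largest median among the 9 roles (log2 difference 2.53). Cenpa, the histone H3 variant that marks centromeres, read 108 in KO NK1.1+, 515 in KO NK1.1− and 180 in control cells. A dimmer Cenpa probe set, above the level on the control array only, read 6.71, 9.35 and 14.8, opposite in order for KO NK1.1− and control. Cenpe, a kinetochore motor, read 23.2, 183 and 31.9, and Cenpf, a large outer kinetochore protein, read 74.6, 473 and 71.3. Both were over 5-fold higher in KO NK1.1− than in control cells, with KO NK1.1+ and control cells within 1.5-fold of each other. The NDC80 complex, which grips microtubule ends, was represented by Ndc80, Nuf2 and Spc25. Nuf2 read 10.9 in KO NK1.1+, 125 in KO NK1.1− and 21.7 in control cells, and Spc25 65.1, 551 and 89.9. Ndc80 read 9.95, 59.1 and 21.2. All 3 of the complex had the order KO NK1.1−, control, KO NK1.1+, and of these Ndc80 alone passed 2-fold for KO NK1.1+ against control, at 2.05-fold or more lower, while Nuf2 was just short of it.

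Among spindle motors and microtubule proteins, 7 of 7 were called higher in KO NK1.1− than in control cells (median log2 difference 2.49) and 7 of 7 lower in KO NK1.1+ than in KO NK1.1− cells (median -3.30). Kif2c (MCAK), which depolymerises microtubules at centromeres, read 62.6 in KO NK1.1+, 619 in KO NK1.1− and 76.1 in control cells by its brightest probe set. A dimmer Kif2c probe set read 5.36, 26.0 and 10.3. Tpx2, which activates Aurora A and nucleates spindle microtubules, read 19.1, 301 and 52.5, and Nusap1, which bundles microtubules near chromosomes, 76.0, 897 and 160. Tpx2 and Nusap1 were lower in KO NK1.1+ than in control cells, 2.75-fold and 2.10-fold. Hmmr, a spindle pole protein, read 20.8 in KO NK1.1+, 200 in KO NK1.1− and 26.1 in control cells. Kif4, a chromosome-borne motor, read 6.90, 73.8 and 18.9, and Kif22, which pushes chromosome arms outward, 265, 595 and 191. By brightest probe sets, Kif22 had the smallest difference of the group between KO NK1.1+ and KO NK1.1− cells, 2.24-fold lower. Its other probe sets gave 1.66-fold and 8.03-fold lower.

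Kif11 (Eg5), the motor that pushes spindle poles apart, was read by 3 probe sets. The brightest read 22.3 in KO NK1.1+, 259 in KO NK1.1− and 74.0 in control cells, another 15.2, 191 and 29.1, and the dimmest 56.1, 31.1 and 13.3. The KO NK1.1− array was above control in all 3, by 2.34-fold to 6.55-fold. The KO NK1.1+ array was 3.31-fold below control by the brightest Kif11 probe set and 4.21-fold above it by the dimmest.

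In the central spindle and cytokinesis group, 5 of 6 genes were called higher in KO NK1.1− than in control cells (median log2 difference 2.06). Prc1, which cross-links central spindle microtubules, read 55.5 in KO NK1.1+, 366 in KO NK1.1− and 58.2 in control cells. Ect2, the exchange factor that activates RhoA for the cleavage furrow, read 55.9, 292 and 61.8. In both, KO NK1.1+ and control cells were nearly equal. Racgap1, partner of Kif23 in centralspindlin, read 327 in KO NK1.1+, 756 in KO NK1.1− and 198 in control cells. Kif23, the motor of centralspindlin, read 83.9, 325 and 180, and its difference for KO NK1.1− against control was 1.80-fold. By their brightest probe sets the centralspindlin partners differed in order: KO NK1.1+ was above control for Racgap1 (1.65-fold) and below it for Kif23 (2.15-fold). A dimmer Kif23 probe set, close to the detection level, read 11.2 in KO NK1.1+, 11.7 in KO NK1.1− and 10.9 in control cells. Anln (anillin), a scaffold of the contractile ring, read 18.1 in KO NK1.1+, 171 in KO NK1.1− and 37.3 in control cells. Kif20a, a motor of late cytokinesis, read 6.80, 53.2 and 19.7.

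The 3 genes of chromosome structure and surface were called higher in KO NK1.1− than in control cells and lower in KO NK1.1+ than in KO NK1.1− cells. Top2a, the topoisomerase that untangles sister chromatids, read 262 in KO NK1.1+, 2323 in KO NK1.1− and 648 in control cells by its brightest probe set and 97.2, 126 and 37.9 by another. Mki67, whose product Ki-67 coats mitotic chromosomes and is the standard stain for cycling cells, read 852, 6945 and 1487. Cdca2, which recruits a phosphatase to chromatin in anaphase, read 20.3, 324 and 61.5 by its brightest probe set and 30.5, 115 and 13.7 by another. For Top2a and Cdca2 the brightest probe set called KO NK1.1+ cells lower than control (2.47-fold and 3.03-fold) and the other called them higher (2.57-fold and 2.23-fold). Mki67 was 4.67-fold higher in KO NK1.1− than in control cells and 1.74-fold lower in KO NK1.1+ than in control cells.

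Several probe sets of a gene are the only repeat reading in these data, and they share the RNA and the array. For KO NK1.1− against control, 27 mitosis genes had at least 2 measured probe sets; in 25 of them every probe set was above 0 and in 18 every one was 2-fold or more higher. Between the KO arrays, 23 of 26 such genes had every probe set below 0, with Anln, Kif11 and Ttk mixed. The KO NK1.1+ differences from control were less uniform: 16 of 24 genes had probe sets on both sides of 0, and in Cdca2, Incenp, Kif11 and Top2a the probe sets gave opposite calls. The pooled SD between log2 differences of probe sets of a gene was 0.80, 1.34 and 1.01 in these 3 comparisons.

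**Figure D4:**
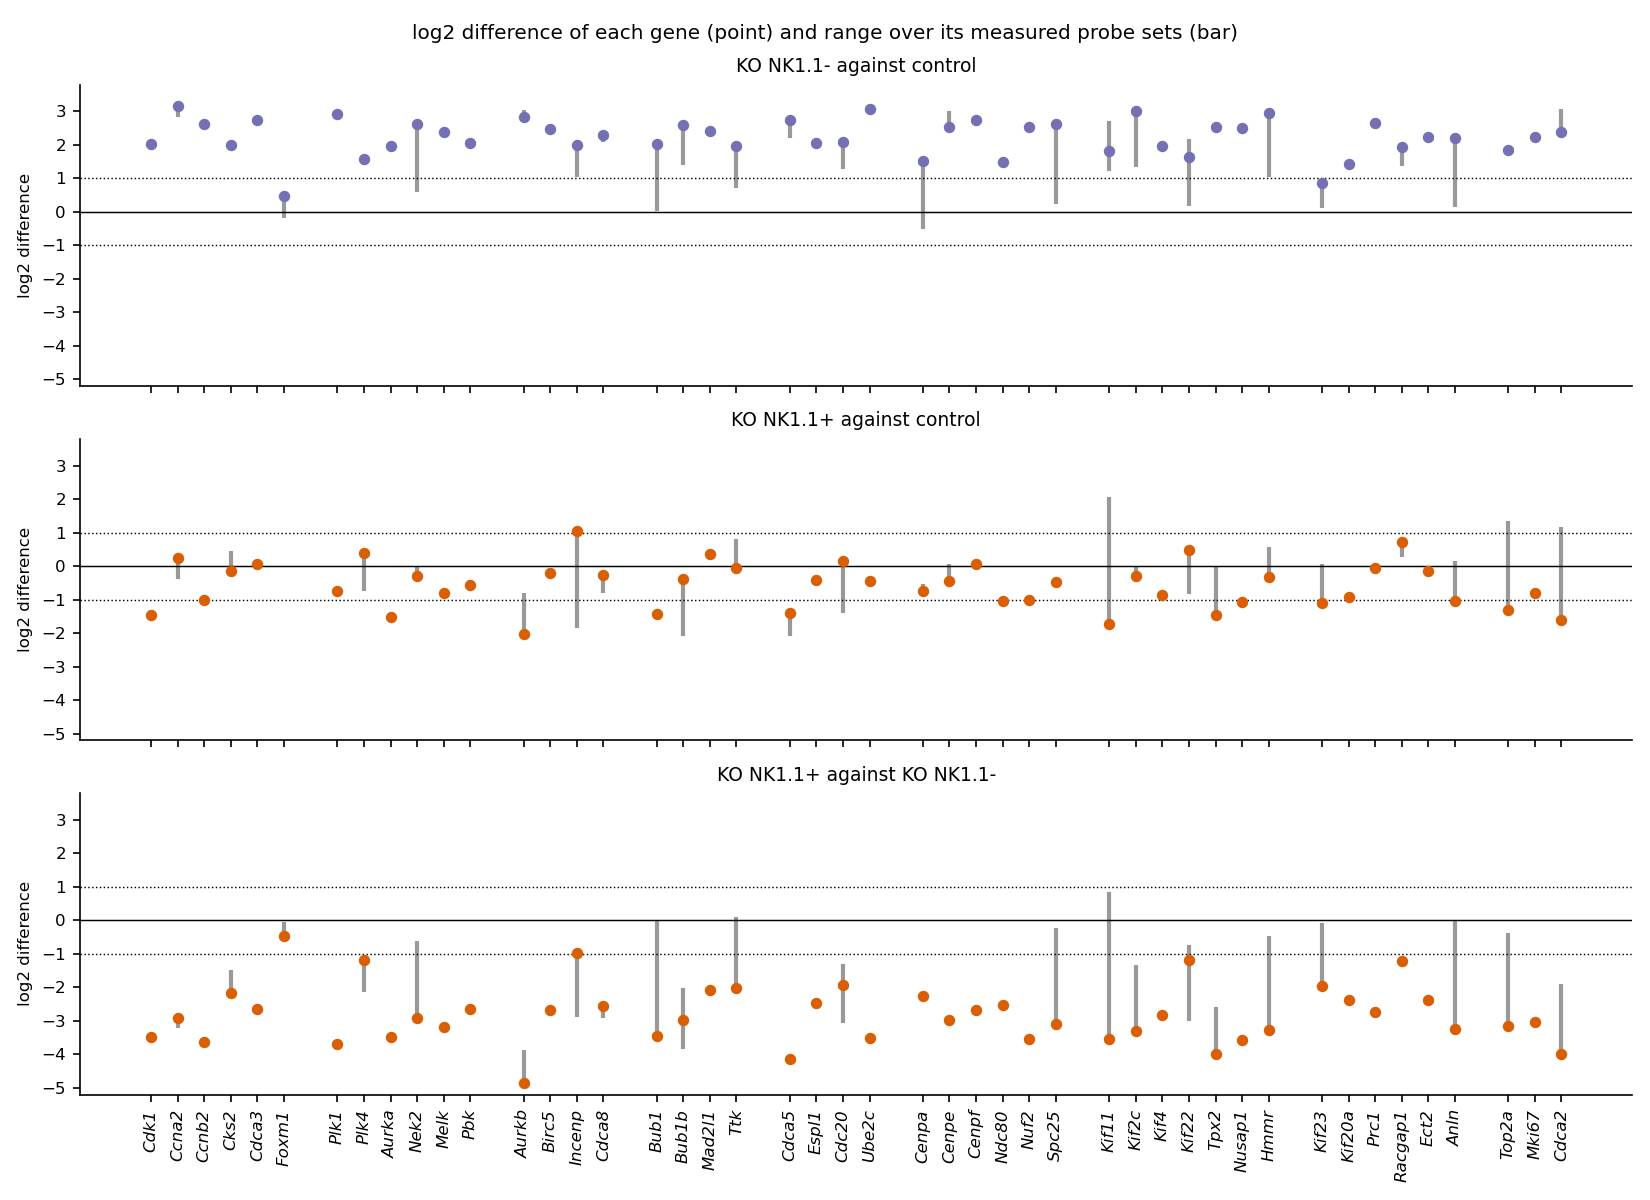
Log2 difference of each of the 46 genes by its brightest probe set (points) and the range over its measured probe sets (bars), in the 3 comparisons; dotted lines mark a 2-fold difference, and Foxm1 has no point for KO NK1.1+ against control because it was measured on neither array. In the top panel bars reach below 0 for Foxm1 and Cenpa, and in the middle panel bars of 16 genes cross 0.

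Other genes of the same machinery, listed by complex, were set beside the 46. Of 8 condensin genes, 5 were called higher in KO NK1.1− than in control cells and 1 lower (median log2 difference 1.25). Over all measured genes, 8.14% were called higher and 5.58% lower. Ncapg, a condensin I subunit, read 35.6 in KO NK1.1+, 229 in KO NK1.1− and 26.4 in control cells, Ncaph, its kleisin subunit, 117, 774 and 137, and Ncapg2, a condensin II subunit, 42.6, 364 and 85.2. Smc4, the ATPase shared by both condensins, ran the other way, with 1854 in KO NK1.1+, 3677 in KO NK1.1− and 7381 in control cells. It was the 1 condensin gene called lower in KO NK1.1− than in control cells, by 2.01-fold. Against KO NK1.1− cells, KO NK1.1+ cells had 6 of the 8 condensin genes called lower and 0 higher (median -2.20), beside 21.7% and 6.5% of all measured genes.

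Of 30 measured kinetochore and checkpoint genes outside the 46, 16 were called higher in KO NK1.1− than in control cells and 0 lower (median log2 difference 1.14). Over all measured genes, 8.14% were called higher and 5.58% lower. Spc24, the fourth subunit of the NDC80 complex, read 8.57 in KO NK1.1+, 108 in KO NK1.1− and 20.8 in control cells, in the same order as its partners. Cenpn and Cenpk, of the inner kinetochore, were 5.11-fold and 5.08-fold higher in KO NK1.1− than in control cells by their brightest probe sets. The Cenpk probe sets disagreed, with log2 differences from 0.19 to 2.35 in this comparison. For KO NK1.1+ against KO NK1.1− cells they gave opposite calls, from -1.49 to 2.51. Of 19 spindle, centrosome and cytokinesis genes, 15 were called higher and 0 lower in KO NK1.1− than in control cells (median 2.00). By brightest probe sets the largest difference was that of Cit, the citron kinase of the midbody. It read 100.4 in KO NK1.1+, 425 in KO NK1.1− and 47.8 in control cells. The Cit probe sets ranged in log2 difference from 0.36 to 3.15 for KO NK1.1− against control. For KO NK1.1+ against KO NK1.1− they ranged from -2.08 to 0.18. Depdc1a was 8.64-fold and Cep55, which recruits abscission proteins, 6.61-fold higher in KO NK1.1− than in control cells. Against KO NK1.1− cells, KO NK1.1+ cells had 21 of 30 kinetochore genes called lower and 0 higher (median -1.40), and 16 of 19 spindle genes lower and 1 higher (median -2.12). Between these arrays 21.7% of all measured genes were called lower and 6.5% higher.

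Cohesin and the APC/C also serve outside mitosis. Among 14 measured genes of cohesin and its regulators, 4 were called higher in KO NK1.1− than in control cells and 0 lower (median 0.28): Esco2 and Sgo1, which establish and guard cohesion, Sgo2a, and Pttg1, which encodes securin. Sgo1 read 8.03 in KO NK1.1+, 107 in KO NK1.1− and 19.3 in control cells. Among 17 APC/C subunits and inhibitors 1 was called higher, Fbxo5 (EMI1, an APC/C inhibitor), with 156 in KO NK1.1+, 789 in KO NK1.1− and 264 in control cells, and 0 lower (median 0.24), beside 8.14% of all measured genes called higher. Against control cells, KO NK1.1+ cells had 6 of the 17 APC/C genes called lower and 0 higher (median -0.77), Ube2s and Cdc23 among them, where 23.3% of all measured genes were called lower, and calls in this comparison depend on the scaling.

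Of 18 genes that set CDK activity, 5 were called higher and 0 lower in KO NK1.1− than in control cells (median 0.56). Over all measured genes, 8.14% were called higher and 5.58% lower. Cdc25c, a phosphatase that activates CDK1, read 8.41 in KO NK1.1+, 99.5 in KO NK1.1− and 10.6 in control cells. Cdc25a, its relative acting also in S phase, read 22.7, 74.5 and 103, lowest in KO NK1.1+ cells. Mastl (Greatwall), the kinase that restrains the phosphatase opposing CDK1, read 142 in KO NK1.1+, 32.9 in KO NK1.1− and 14.2 in control cells, and it was the 1 gene of this list called higher in KO NK1.1+ than in both other groups. Ckap5, a microtubule polymerase, read 198 in KO NK1.1+, 41.2 in KO NK1.1− and 37.3 in control cells by its brightest probe set. The probe sets of Ckap5 gave opposite calls, with log2 differences from -2.40 to 2.41 for KO NK1.1+ against control and from -2.68 to 2.27 against KO NK1.1−. Those of Mastl ranged from -0.76 to 2.10 for KO NK1.1+ against KO NK1.1−.

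Of 14 genes of quiescence and antiproliferative function, 1 was called higher and 1 lower in KO NK1.1− than in control cells (median -0.47), near the shares of all measured genes (8.14% and 5.58%). The higher gene was Cdkn2c, a CDK4/CDK6 inhibitor, with 119 in KO NK1.1+, 341 in KO NK1.1− and 110 in control cells. The lower gene was Foxo1, a transcription factor of resting lymphocytes, with 1081, 1405 and 2914. In KO NK1.1+ against KO NK1.1− cells, Btg1, Cdkn1b (the CDK inhibitor p27) and Tob1 were called higher and Cdkn2c and Slfn2 lower. These are 21.4% and 14.3% of the 14, beside 6.5% higher and 21.7% lower over all measured genes. Cdkn1b read 2060 in KO NK1.1+, 578 in KO NK1.1− and 1120 in control cells. It was lowest on the KO NK1.1− array, but was not called for KO NK1.1− against control. Cdkn1b was named after its values were seen, and any relation to the mitosis genes was not tested.

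**Figure D5:**
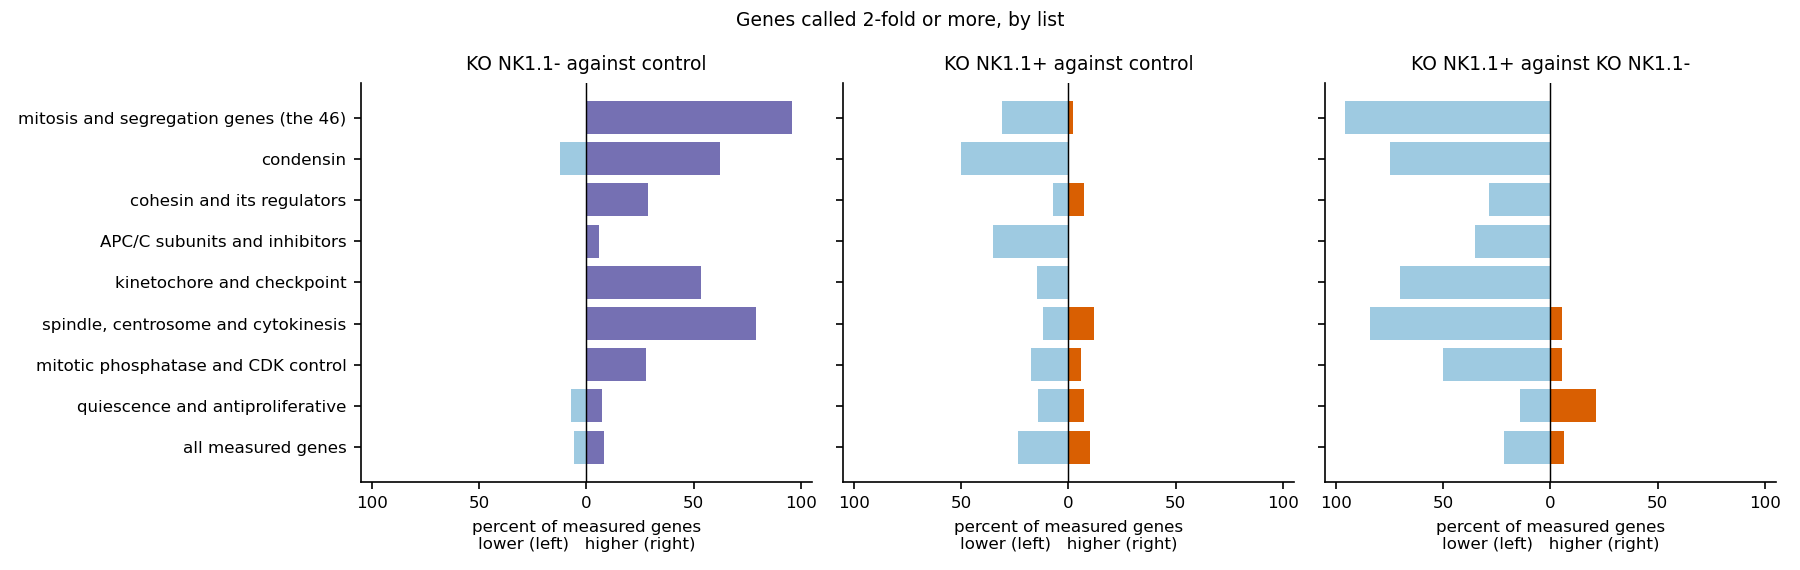
Percent of measured genes called 2-fold or more lower (left of 0) or higher (right of 0), for the 46 mitosis genes, 7 further lists and all measured genes, in the 3 comparisons. For KO NK1.1− against control the 46 genes reach 95.7% higher and the spindle list 78.9%, against 8.14% of all genes; calls for KO NK1.1+ against control depend on how the arrays are scaled, with 40 of the 46 lower under scaling by hybridisation controls and 19 higher under centring on CD8 T cell markers.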

How the data were processed

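The authors deposited 1 linear probe set intensity per array for 45101 probe sets; the submitters' processing notes name GCRMA 1.1.3, which corrects background by probe sequence, normalizes and summarises probes, with settings not given in the sources used here. GCRMA draws low values together, so differences of dim genes can be understated. Of 45037 probe sets other than the 64 controls, the platform annotation gave 34945 exactly 1 symbol, 932 several and 9160 none, and only the first were named. Log2 was taken after raising values below the detection level to it. Calls needed 2-fold between single arrays. The rules were tested on simulated data whose changed genes all lay well above the detection level. The simulated noise was set smaller than the spread between probe sets of a gene in these data. That test therefore cannot show how calls behave for dim genes or at this spread. No p-values were made.

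The listed genes and all other lists were chosen with earlier results of these data known. Any member could be named. Of other lists the text names the 3 genes with the largest difference of either KO array against control and genes called against their list's majority, with Tgfbr2 and the NK1.1 gene as checks. Cdkn1b, the cell type markers named one by one and the genes listed for a count of 5 or fewer were named after their values were seen. Alternatives changed the detection level, offset, probe set choice, normalization and threshold; centring on CD8 T cell markers was added after seeing the data. Python 3.11.15, pandas 2.3.3, numpy 2.4.6 and matplotlib 3.10.9 were used. Promoters are from RefSeq, and no coordinates of probe sets are given.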

Additional observations from a re-analysis of the deposited data

Results flagged for a closer look

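For 13 mitosis genes both KO arrays passed 2-fold against the control array, in opposite directions. The log2 differences, for KO NK1.1− and then KO NK1.1+ against control, were 2.02 and -1.47 for Cdk1 and 2.61 and -1.01 for Ccnb2. For the kinases they were 1.96 and -1.52 (a bound) for Aurka and 2.82 and -2.03 for Aurkb. Bub1 had 2.02 and -1.44, Cdca5 2.73 and -1.39, and Ndc80 1.48 and -1.03 (a bound). Among spindle proteins, Kif11 had 1.81 and -1.73, Tpx2 2.52 and -1.46, and Nusap1 2.49 and -1.07. Anln had 2.19 and -1.05, Top2a 1.84 and -1.31, and Cdca2 2.40 and -1.60. Another probe set of Kif11, Top2a and Cdca2 put KO NK1.1+ above control, by 4.21-fold, 2.57-fold and 2.23-fold. For Tpx2 and Anln another probe set gave log2 differences near 0 (0.006 and 0.15). A second Aurkb probe set was 1.75-fold below control, short of a call. Over all measured genes, 8.14% were called higher in KO NK1.1− and 23.3% lower in KO NK1.1+ than in control cells. How many of all genes had both calls was not counted, so the 13 cannot be set beside such a share. With 44 of the 46 mitosis genes called higher in KO NK1.1−, the 13 are the 14 called lower in KO NK1.1+ (31.1% of those measured) without Kif23. With arrays centred on CD8 T cell markers 0 of the 46 genes were called lower in KO NK1.1+ than in control cells, and with median centring 6. The difference was not tested, since each group has 1 array and both comparisons share the control array.

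A probe set annotated to Tex52, Pebp1 and Foxm1 together, and so used for no gene, read 6.20 in KO NK1.1+, 64.8 in KO NK1.1− and 8.74 in control cells. Which of the 3 genes it reads cannot be told apart.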

How the results depend on the processing

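Mitosis genes called higher in KO NK1.1− than in control cells numbered between 30 (of 36 measured, probe sets without suffix only) and 45 under all settings run, and those called lower 0. The median log2 difference of 2.26 moved to 1.75 when probe sets of a gene were averaged and to 2.74 with centring on CD8 T cell markers. Between the KO arrays, KO NK1.1+ against KO NK1.1−, 37 to 45 genes were called lower, except 29 of the 35 measured by probe sets without suffix, and 0 higher. Its median of -2.91 moved to -2.08 when probe sets of a gene were averaged, -4.04 with scaling by hybridisation controls and -2.04 with CD8 T cell marker centring. For KO NK1.1+ against control, the 14 genes called lower became 4 with the detection level at the 75th percentile, 2 with an offset of 32, 6 when probe sets of a gene were averaged, 6 with median centring, 40 with hybridisation control scaling, 3 at 3-fold and 0 with CD8 T cell marker centring. The 1 called higher became 2 at 1.5-fold, 0 at 3-fold, 2 with median centring, 0 with the mean of probe sets, 0 with hybridisation scaling and 19 with marker centring. Its median of -0.47 moved to -1.64 with hybridisation scaling and 0.89 with marker centring, and with median centring it was -0.01.

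Called single values that changed sign were, for KO NK1.1− against control, Cenpa (-0.52 by probe sets without suffix). Those for KO NK1.1+ against control were Top2a (0.018 by the mean of probe sets, 1.36 without suffixed ones) and Incenp (-0.28 with hybridisation scaling). With marker centring, Ccnb2 became 0.39, Cdca5 0.013, Ndc80 0.32, Nusap1 0.33, Kif23 0.30, Anln 0.36 and Top2a 0.099. The cause was not tested. No paired analysis was possible because each group has 1 array, and no array could be left out. Signal over background limits Foxm1, Aurka, Ndc80, Kif4 and Kif20a, which were below the level on at least 1 array. The KO NK1.1+ values of Aurkb (10.8) and Nuf2 (10.9) lay just above the level.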

Other observations

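The number of calls for KO NK1.1+ against control differed with the type of probe set, with both medians below 0. Among 21 measured mitosis genes whose brightest probe set had no suffix, 10 were called lower and 0 higher (median log2 difference -0.87). Among 24 with a suffixed one, 4 were called lower and 1 higher (median -0.29). Over all measured genes, 23.3% were called lower and 9.9% higher. These shares were not split by type of brightest probe set, so whether the difference is particular to the mitosis genes was not tested. For KO NK1.1− against control the same classes of mitosis genes had 20 of 22 and 24 of 24 called higher (medians 2.30 and 2.26), beside 8.14% of all measured genes.

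The 4 genes of the MuvB core on the list of CDK control, Lin9, Lin37, Lin52 and Lin54, were measured on all arrays. None was called in any comparison, and they were chosen after their values were seen. Most measured genes were not called either: 8465 of 9812 for KO NK1.1− against control, 6906 of 10339 for KO NK1.1+ against control and 7417 of 10328 between the KO arrays. The missing calls are therefore no particular trait of these 4 genes. Lin54, the subunit that contacts the homology region, read 197 in KO NK1.1+, 178 in KO NK1.1− and 120 in control cells.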
